A study of Homo sapiens with 6 samples.

Results

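The ID proteins and the genes that feed back on SMAD signalling were examined as a group of 10 genes in T24 cells, an established human bladder carcinoma line, after exposure to MAP30. The genes are ID1, ID2, ID3 and ID4, the signal-carrying SMAD3 and SMAD4, the inhibitory SMAD6 and SMAD7, and the corepressors SKIL and TGIF1. They were taken as a list of names, with every probe set annotated to exactly 1 gene. That gave 35 probe sets among 44988, and 10 genes among 18132. The MAP30 group is 3 arrays of T24 cells exposed for 48 hours to 10 µg/ml of MAP30, a protein that bitter melon (Momordica charantia) makes and that inactivates ribosomes. The control group is 3 arrays of T24 cells labelled normal, and the sources used here do not say what they received. Both groups are a single cell line. No label states whether replicates came from different cultures, so the p-values below reflect only the spread among these arrays, which may be technical.

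Ligands of the TGF-beta and BMP branches bind paired receptor kinases, which phosphorylate SMAD proteins. SMAD2 and SMAD3 serve TGF-beta and activin, SMAD1, SMAD5 and SMAD9 serve BMP, and SMAD4 joins both branches to carry the signal to the nucleus. SMAD6 and SMAD7 are induced by the pathway and block it at the receptors, while SKIL (SnoN) and TGIF1 hold back SMAD-driven transcription. ID proteins have a helix-loop-helix domain without a DNA-binding region; they pair with E proteins such as those of TCF3, TCF4 and TCF12 and keep them off DNA. ID1, ID2 and ID3 are known as direct BMP targets, and in epithelial cells TGF-beta is known to lower ID1.

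Promoters are shown for the members with opposite responses in 1 family, ID1 and ID3 against ID2, and for SKIL, the corepressor that rose. ID4 and SMAD6, which did not pass the test, are also shown. SMAD4, which did not pass either and has a single listed start, is not shown. Each promoter shown is the 250 bases before the single start listed for that gene by RefSeq (GRCh38.p14), 5′ to 3′ on the gene's strand. Capitals mark the motifs found in it.
ID1 (chr20:31605039-31605288, plus strand): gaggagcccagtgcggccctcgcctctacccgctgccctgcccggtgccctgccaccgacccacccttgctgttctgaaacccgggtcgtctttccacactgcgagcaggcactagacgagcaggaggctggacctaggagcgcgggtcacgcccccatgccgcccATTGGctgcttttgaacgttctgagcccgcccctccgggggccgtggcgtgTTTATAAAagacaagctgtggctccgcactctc
ID2 (chr2:8681806-8682055, plus strand): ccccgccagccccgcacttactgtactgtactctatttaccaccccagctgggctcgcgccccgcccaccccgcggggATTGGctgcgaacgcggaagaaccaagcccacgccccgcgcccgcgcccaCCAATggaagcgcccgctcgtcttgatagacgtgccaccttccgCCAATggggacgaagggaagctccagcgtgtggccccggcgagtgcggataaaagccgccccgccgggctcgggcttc
ID3 (chr1:23559502-23559751, minus strand): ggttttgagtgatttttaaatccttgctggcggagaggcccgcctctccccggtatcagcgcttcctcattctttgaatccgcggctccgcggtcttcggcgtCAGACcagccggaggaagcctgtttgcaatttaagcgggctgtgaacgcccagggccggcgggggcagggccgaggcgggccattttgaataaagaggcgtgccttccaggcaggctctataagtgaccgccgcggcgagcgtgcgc
ID4 (chr6:19837120-19837369, plus strand): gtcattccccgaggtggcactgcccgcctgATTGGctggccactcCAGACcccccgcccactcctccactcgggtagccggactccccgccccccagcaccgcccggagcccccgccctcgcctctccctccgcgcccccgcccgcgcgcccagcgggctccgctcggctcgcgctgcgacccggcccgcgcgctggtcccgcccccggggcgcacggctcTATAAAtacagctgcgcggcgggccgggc
SMAD6 (chr15:66701986-66702235, plus strand): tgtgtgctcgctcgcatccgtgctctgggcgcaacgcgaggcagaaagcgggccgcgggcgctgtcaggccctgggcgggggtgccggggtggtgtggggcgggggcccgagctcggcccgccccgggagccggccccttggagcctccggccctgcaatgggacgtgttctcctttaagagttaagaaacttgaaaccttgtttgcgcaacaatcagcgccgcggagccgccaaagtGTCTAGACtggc
SKIL (chr3:170357465-170357714, plus strand): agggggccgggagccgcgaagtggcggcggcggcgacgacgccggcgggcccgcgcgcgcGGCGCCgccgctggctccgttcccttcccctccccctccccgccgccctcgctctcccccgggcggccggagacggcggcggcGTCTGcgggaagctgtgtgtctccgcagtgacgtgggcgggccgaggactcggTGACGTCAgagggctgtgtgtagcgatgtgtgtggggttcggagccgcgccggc

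The motifs searched on both strands were the TATA box TATAAA, the CCAAT box CCAAT, the SMAD palindrome GTCTAGAC, the shorter SMAD site CAGAC, the BMP-type GC-rich element GGCGCC, the AP-1 site TGANTCA and the cyclic AMP response element TGACGTCA. Positions count back from the base before the start, which is -1. ID1 held a TATA box at -31 to -26, overlapped by a match on the other strand at -33 to -28, and a CCAAT box at -84 to -80. ID4 also held a TATA box, at -29 to -24, which 10.7% of 35116 such windows have. ID4 further held a CCAAT box at -220 to -216 and a CAGAC at -205 to -201. ID2 held 3 CCAAT boxes, a motif found in 32% of windows, and no other motif of the search. ID3 held only a CAGAC, at -147 to -143, a site present in 38% of windows. SKIL was the one of the 6 with a TGACGTCA, at -54 to -47, seen in 1.65% of windows, and with a GGCGCC, at -190 to -185, seen in 16.4%; it also held a CAGAC on the other strand at -107 to -103. SMAD6 held the palindrome GTCTAGAC at -12 to -5, seen in 0.182% of windows. None of the 6 held TGANTCA, seen in 6.57%. Outside these 6, SMAD4 held a GGCGCC at -125 to -120 and a CCAAT box at -234 to -230. A window of SMAD3, which has several listed starts, held GGCGCC at -136 to -131 and at -106 to -101. All these matches describe the letters of the windows only.

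The deposited values are log values, taken to be base 2, and every probe set has been centred so that its median over all 6 arrays is 0. A value therefore says how far an array lies from the middle of its own probe set, and says nothing of how abundant a transcript is. No member can be called high, low or absent in level, members cannot be ranked by level, and the labelled cell type could not be checked against the level of its markers. A gene's value is the mean over its probe sets. Differences are MAP30 minus control, fitted with limma over all genes and adjusted by the Benjamini-Hochberg method, and a gene passed at an adjusted p under 0.05.

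In MAP30-treated cells 3 of the 10 genes rose and 4 fell, and 3 did not pass. Calls were common throughout the array: 57.5% of all 18132 genes passed, 26.9% as higher and 30.6% as lower. The members' 7 of 10 is thus near the background, and their count is no result about them. The 2 groups did not overlap in 8 of the 10, against 62.6% of all genes. The median log2 fold change was -0.09 over the members and -0.02 over all genes. What set the members apart from one another was the size and direction of change, from -2.27 for ID1 to 2.24 for ID2.

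**Figure D1:**
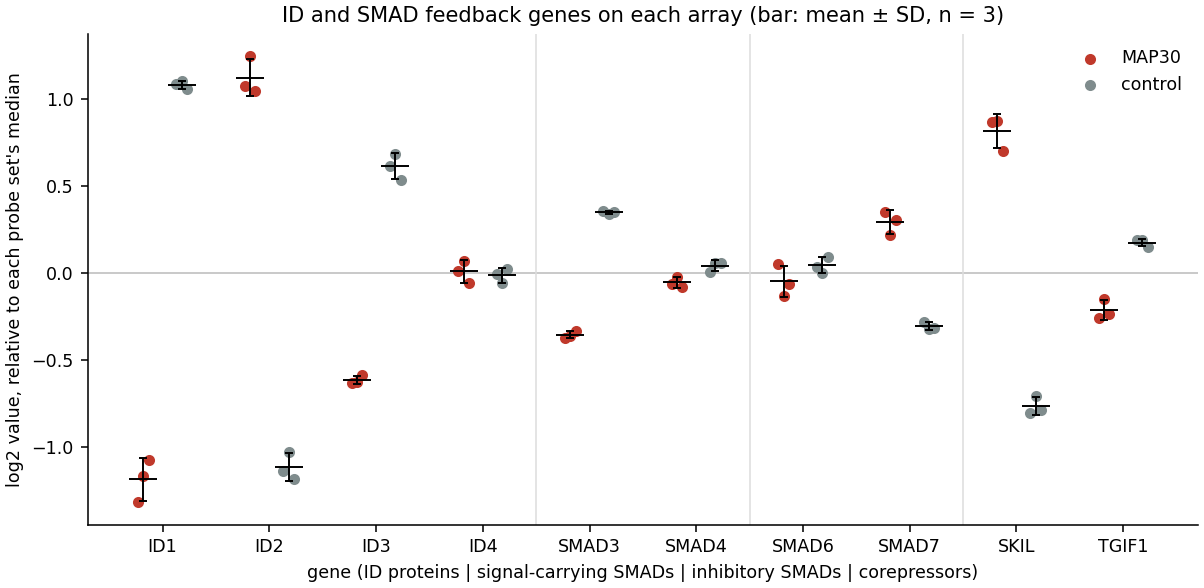
Each point is 1 array, 3 MAP30 arrays (red) left of 3 control arrays (grey) for each of the 10 genes, and bars give the mean ± SD. The vertical axis is the log2 value relative to each probe set's median over the 6 arrays. ID1 averaged -1.19 with MAP30 and 1.08 in control, while ID2 averaged 1.13 with MAP30 and -1.12 in control; ID4 and SMAD6 overlapped between groups.

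ID1, which restrains differentiation, gave values of -1.32, -1.17 and -1.07 with MAP30, against 1.09, 1.11 and 1.06 in control. All 3 MAP30 arrays lay far below all 3 control arrays. The gene fell 4.82-fold (-2.27 ± 0.06 SE as a log2 fold change, n = 3 per group; limma adjusted p = 7.46e-08), which made it number 16 among the falls of all 18132 genes. The 3 probe sets of ID1 ran from -2.36 to -2.17 and all passed. In RNA of whole cultures, fewer cells expressing a gene and less RNA per cell cannot be told apart.

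ID2 moved the other way. Its values were 1.08, 1.25 and 1.05 with MAP30, against -1.14, -1.03 and -1.18 in control. The groups were well apart, and ID2 rose 4.73-fold (2.24 ± 0.07 SE, n = 3 per group; limma adjusted p = 9.79e-08), number 158 among all rises. Its 2 probe sets rose by 2.74 ± 0.09 and 1.74 ± 0.06 on the log2 scale (SE). Their names end in _x_at and _s_at, classes whose probes can also match other transcripts, and RefSeq lists a pseudogene copy, ID2B, on another chromosome; how far it adds to either probe set was not tested.

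ID3, whose protein is the close relative of ID1, stood at -0.63, -0.62 and -0.59 with MAP30, against 0.62, 0.69 and 0.54 in control. It fell 2.34-fold (-1.23 ± 0.05 SE, n = 3 per group; limma adjusted p = 2.66e-07). All 3 of its probe sets passed as lower, from -1.43 to -1.12. ID1 and ID3 thus shared a direction that ID2 did not.

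ID4 gave 0.02, 0.07 and -0.06 with MAP30, against -0.01, -0.06 and 0.03 in control. These values overlapped, and the log2 fold change of 0.02 (95% interval -0.08 to 0.13; limma adjusted p = 0.703) did not pass. This interval lies well short of the changes of the other ID genes. With arrays centred on hybridization controls it was -0.19, and with arrays centred on poly-A controls 0.19, and both passed, so no direction can be given. Of its 4 probe sets 1 passed, that on AA532381, at 0.21 ± 0.07 SE (limma adjusted p = 0.0472). It no longer passed without MAP30 replicate 2 (0.15) or 3 (0.21), or without control replicate 1 (0.23), 2 (0.15) or 3 (0.24), and was -0.00 with hybridization-control centring. Whether any probe set of ID4 or SMAD6 lies above the background of the array cannot be told from centred values.

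The corepressor SKIL, whose protein binds SMADs and is degraded when TGF-beta signals, had values of 0.87, 0.88 and 0.70 with MAP30, against -0.80, -0.70 and -0.78 in control. It rose 2.99-fold (1.58 ± 0.06 SE, n = 3 per group; limma adjusted p = 2.36e-07). The 3 probe sets ran from 1.46 to 1.77, and none of their groups overlapped. SKIL was number 382 among the rises of all genes.

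TGIF1, a homeodomain corepressor of SMAD complexes, had values of -0.25, -0.15 and -0.24 with MAP30, against 0.19, 0.19 and 0.15 in control. It fell 1.31-fold (-0.39 ± 0.04 SE, n = 3 per group; limma adjusted p = 7.17e-05), with both probe sets lower, at -0.34 and -0.44. Centred on hybridization controls it fell by 0.60 and on poly-A controls by 0.23. The corepressors therefore split in direction.

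SMAD7, which blocks the receptors of both branches, had values of 0.36, 0.22 and 0.31 with MAP30, against -0.28, -0.32 and -0.32 in control. It rose 1.52-fold (0.60 ± 0.04 SE, n = 3 per group; limma adjusted p = 9.23e-06). All 3 of its probe sets passed as higher, at 0.66, 0.80 and 0.34, and hybridization-control centring lowered the gene's value to 0.39. SMAD6, the inhibitor that acts mainly on the BMP branch, gave 0.05, -0.13 and -0.06 with MAP30, against 0.04, 0.00 and 0.10 in control. The groups overlapped, and the log2 fold change of -0.09 (95% interval -0.22 to 0.03; limma adjusted p = 0.187) did not pass; nor did any of its 3 probe sets. It passed at -0.30 with hybridization-control centring, at -0.15 with the median over probe sets and at -0.14 without MAP30 replicate 1, and was 0.07 without passing on poly-A-control centring.

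SMAD3, the receptor-activated SMAD of TGF-beta and activin, had values of -0.37, -0.36 and -0.33 with MAP30, against 0.36, 0.34 and 0.35 in control. It fell 1.63-fold (-0.70 ± 0.03 SE, n = 3 per group; limma adjusted p = 7.05e-07). The gene value joins unlike probe sets, and was -0.31 from _at and _a_at probe sets alone. Those designed on NM_005902.3 and CR457386.1 fell by 1.45 and 1.15 on the log2 scale, those on BC050743.1 and AK316017.1 by 0.46 and 0.39, and the one on AK290881.1, at -0.09 (limma adjusted p = 0.261), did not pass. The names of the 2 with the largest falls end in _s_at, a class whose probes can also match other transcripts. SMAD3 and SMAD6 are neighbouring protein-coding genes on chromosome 15 in the RefSeq annotation. As deposited SMAD3 passed and SMAD6, also below 0 at -0.09, did not, and the difference between these 2 genes was not tested.

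SMAD4, the common partner, had a gene value of -0.06, -0.02 and -0.08 with MAP30, against 0.01, 0.06 and 0.06 in control. The groups did not overlap, but the log2 fold change of -0.10 ± 0.04 SE did not pass (limma adjusted p = 0.0504). That mean hides a split among its 7 probe sets. The probe set on NM_005359.5 had -0.72, -0.56 and -0.58 with MAP30, against 0.57, 0.56 and 0.63 in control, and fell by 1.21 ± 0.05 SE on the log2 scale (limma adjusted p = 9.48e-07). The other 6 ran from -0.13 to 0.22, with 3 higher, 1 lower and 2 that did not pass. The name of the probe set that fell by 1.21 ends in _s_at, a class whose probes can also match other transcripts. From _at and _a_at probe sets alone SMAD4 stood at 0.07, without passing. With the median over probe sets in place of the mean, SMAD4 stood at 0.09, with the sign turned and without passing; it passed at -0.30 with hybridization-control centring and at -0.10 with a variance trend (limma adjusted p = 0.0434), and was 0.07 on poly-A-control centring. The direction for SMAD4 hence depended on the probe set; which transcripts each one detects was not analysed here.

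**Figure D2:**
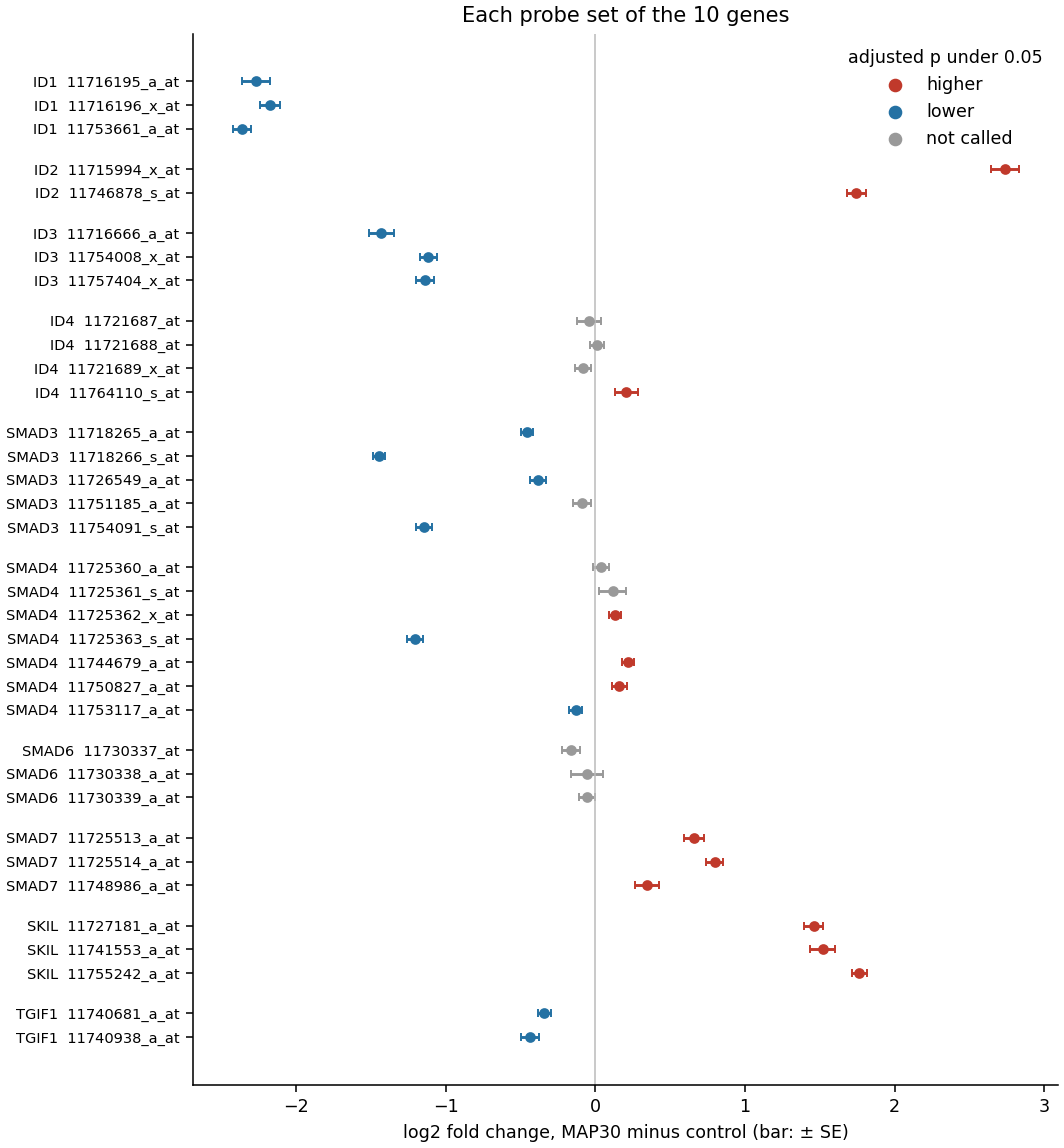
Log2 fold change (MAP30 minus control, horizontal axis) of each of the 35 probe sets with its SE; red passed as higher, blue as lower, grey did not pass at an adjusted p of 0.05. Probe sets of ID1, ID2, ID3, SMAD3, SMAD6, SMAD7, SKIL and TGIF1 lie on 1 side of 0 for each gene. Of these, 1 of SMAD3 and all of SMAD6 did not pass. Those of ID4 lie between -0.08 and 0.21. For SMAD4, 1 probe set lies at -1.21 and the other 6 between -0.13 and 0.22.

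Counted by probe set, 12 of the 35 were higher, 14 lower and 9 did not pass, beside 26.5% higher and 30.3% lower among all 44988, or 56.8% in either direction. The groups did not overlap in 27 of the 35, against 62.3% of all probe sets. SMAD2, the other receptor-activated SMAD of TGF-beta, also had unlike probe sets: of its 7 probe sets 3 fell, with the lowest at -0.88, 1 rose by 0.32 and 3 did not pass. The log2 ratio of ACTB control probe sets at the 3′ end over the 5′ end was higher with MAP30 by 0.158, and that of GAPDH by 0.0426. This measure of RNA or labelling quality moves with every comparison here, and its part in the differences between probe sets was not tested.

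Differences between members on the same array do not move when an array is shifted by a constant, as centring does. ID2 minus ID1 ran from 2.12 to 2.42 log2 units on MAP30 arrays, against -2.24 to -2.13 on control arrays, a shift of 4.51 in these centred values. ID3 minus ID1 shifted by 1.04, and ID4 minus ID1 shifted by 2.29. SKIL minus TGIF1 shifted by 1.97 and SMAD7 minus SMAD6 by 0.69, while SMAD3 minus SMAD4 shifted by -0.61. The shift in SMAD3 minus SMAD4 was -0.38 from _at and _a_at probe sets alone, so its size depended on the probe sets used. In each of the 6 pairs the ranges of the groups were separate. Among all single genes 62.6% had groups that did not overlap. The share over other pairs of genes was not computed, so this separation is no result about these pairs. The exact permutation p was 0.1 for each, two-sided and also after adjustment over the 6 pairs, which is the smallest that 3 arrays against 3 allow.

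Scaling of the arrays changed sizes but not the direction or call of the 7 members that passed. Centring on hybridization controls, RNAs added before hybridization, moved the median of all genes to -0.23, and centring on poly-A controls, RNAs added before labelling, moved it to 0.14, because these 2 spike-in sets shifted with MAP30 by 0.209 and -0.164. Across these, quantile normalization, array medians and 11 other settings, ID1 ran from -2.95 to -2.10 and ID3 from -1.44 to -1.06. SKIL ran from 1.37 to 1.74, SMAD7 from 0.39 to 0.76, SMAD3 from -0.91 to -0.31 and TGIF1 from -0.60 to -0.23. The -2.95 of ID1 came from quantile normalization, which was run on the centred values. The next lowest value of ID1 was -2.48, with hybridization-control centring. ID2 ran from 1.93 to 2.40 over 14 settings, having no probe set of class _at or _a_at.

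**Figure D3:**
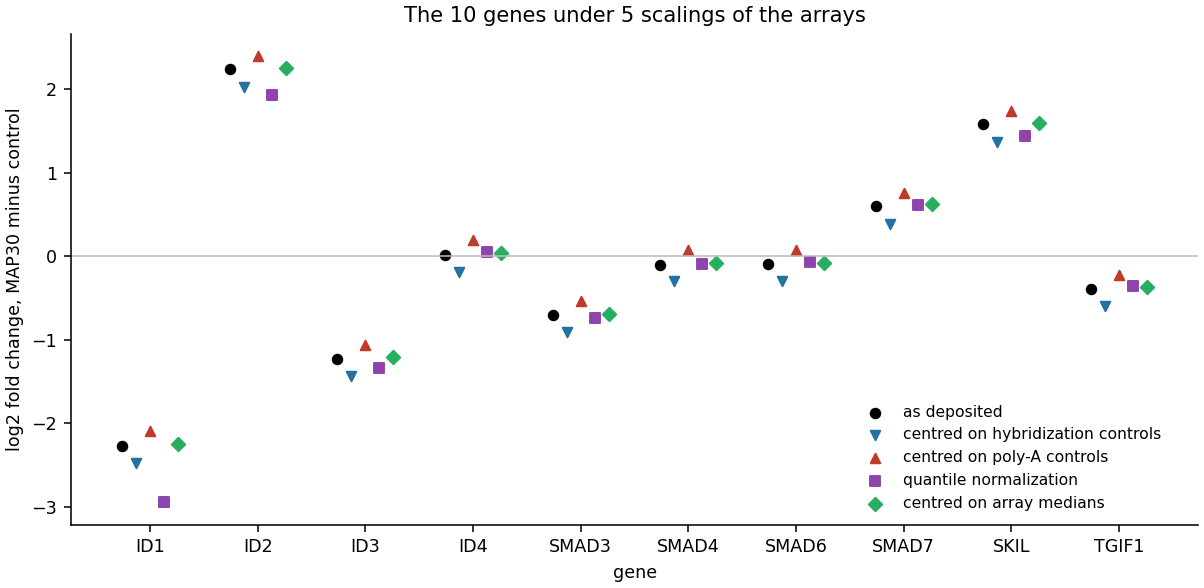
Log2 fold change (MAP30 minus control, vertical axis) of each gene as deposited and under 4 other scalings of the arrays, each marked by its own symbol. ID1, ID3, SMAD3 and TGIF1 stay below 0 and ID2, SMAD7 and SKIL above 0 throughout, while ID4, SMAD4 and SMAD6 are 0.19, 0.07 and 0.07 with poly-A-control centring and -0.19, -0.30 and -0.30 with hybridization-control centring.

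Around these members, 58 of 61 listed genes of the pathways were measured, of which 22 were higher and 21 lower, where 26.9% of all genes were higher and 30.6% lower. Centring on hybridization controls made it 17 higher and 27 lower, whereas poly-A controls made it 33 higher and 15 lower. All genes moved the same way: 17.0% were higher and 63.7% lower on the hybridization controls, and 49.1% higher and 20.7% lower on the poly-A controls. The counts of the lists below are to be read against these shares. Small changes in this group therefore carry no firm direction. The lists are described by their counts and medians alone.

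Among 13 ligand genes 3 rose, 3 fell and 7 did not pass, with a median of 0.07; under hybridization-control centring 2 rose and 6 fell, and under poly-A-control centring 9 rose and 1 fell. BMP2, a ligand of the BMP branch, had values of 0.90, 0.95 and 1.17 with MAP30, against -0.87, -0.99 and -1.06 in control. It rose 3.95-fold, with its 2 probe sets alike at 1.98 on the log2 scale (limma adjusted p = 4.03e-07). INHBA, which encodes the subunit of activin A, rose 2.12-fold. INHBB, which encodes the subunit of activin B, fell by 1.69 ± 0.15 SE on the log2 scale. BMP4 (0.28), TGFB1 (-0.29) and GDF11 (-0.13) passed as deposited; BMP4 did not pass with hybridization-control centring (0.07), without MAP30 replicate 1 (0.22) or 3 (0.28), or without control replicate 3 (0.21), and TGFB1 (-0.12) and GDF11 (0.03) did not with poly-A-control centring.

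Of 11 receptor and coreceptor genes 3 rose, 5 fell and 3 did not pass (1 and 6 when centred on hybridization controls, 4 and 4 on poly-A controls). TGFBR3 (betaglycan), a coreceptor that presents TGF-beta, fell by 0.93 on the log2 scale, and ENG (endoglin) by 0.81, with every probe set of either lower. BMPR2, the BMP type II receptor, stood at -0.62, with 2 probe sets lower and 1 higher, and at -0.97 by the median over probe sets. ACVR2A (0.44), ACVR1 (0.32) and TGFBR2 (0.28) were higher, but with hybridization-control centring ACVR1 (0.11) and TGFBR2 (0.07) did not pass.

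Extracellular regulators went both ways: of 9 genes 2 rose and 5 fell (2 and 7 when centred on hybridization controls, 4 and 4 on poly-A controls). FSTL3 and FST, which encode follistatins that trap activin, rose 2.49-fold and by 0.81 on the log2 scale. LTBP3, a binding protein of latent TGF-beta, fell by 1.25, LTBP2 by 0.46 and NOG, the BMP antagonist noggin, by 0.81 on the log2 scale. The other SMADs, corepressors and ubiquitin ligases held 4 higher and 5 lower of 10; hybridization-control centring gave 4 and 5, poly-A-control centring 4 and 4.

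SKI, the paralog of SKIL, stood at -0.63, -0.49 and -0.48 with MAP30, against 0.51, 0.46 and 0.45 in control. It fell by 1.00 on the log2 scale (limma adjusted p = 1.07e-06), with all 5 probe sets lower, where SKIL rose. TGIF2, the paralog of TGIF1, rose 2.31-fold (limma adjusted p = 1.18e-07) where TGIF1 fell. Both corepressor families thus held 1 gene that rose and 1 that fell. BAMBI, a decoy receptor that dampens the pathway, rose 2.66-fold, and SMURF1, a ubiquitin ligase for SMADs and receptors, by 0.71 on the log2 scale. PMEPA1, which sequesters SMAD2 and SMAD3, fell by 0.47 on the log2 scale. SMAD2 fell by 0.32, or by 0.15 as the median over its unlike probe sets.

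The E proteins that ID proteins bind also differed from one another. TCF3, which encodes E12 and E47, had -0.71, -0.59 and -0.60 with MAP30, against 0.59, 0.61 and 0.61 in control. It fell 2.36-fold (limma adjusted p = 2.06e-07), with its 4 probe sets between -2.46 and -0.41. TCF12 rose by 0.58 on the log2 scale in 11 of 11 probe sets. TCF4 stood at 0.18 as deposited, with 7 probe sets higher and 3 lower, and at -0.03 without passing under hybridization-control centring.

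Of 9 genes listed as TGF-beta targets 7 rose and 2 fell, with a median log2 fold change of 0.74; 6 rose and 2 fell when centred on hybridization controls, and 7 and 2 on poly-A controls. Of all genes 26.9%, 17.0% and 49.1% were higher in these settings, and 30.6%, 63.7% and 20.7% lower. CDKN2B, an inhibitor of cyclin-dependent kinases, had 1.40, 1.31 and 1.34 with MAP30, against -1.35, -1.36 and -1.42 in control. It rose 6.61-fold (limma adjusted p = 7.37e-09), with 3 probe sets from 1.47 to 3.49 on the log2 scale. KLF10, a zinc-finger factor induced early by TGF-beta, rose 3.9-fold and JUNB, an AP-1 subunit, by 1.60 on the log2 scale. JUNB has 1 probe set, of class _x_at, and the 2 of KLF10 are of class _s_at. Probes of these classes can also match other transcripts. PMEPA1 and LTBP2 were the 2 that fell. These genes also answer to other stimuli, so the list is no readout of 1 ligand. Like the other lists, it was chosen with earlier results of these data known, so its counts and median only describe it.

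Of 8 BMP targets other than the ID genes 2 rose, 3 fell and 3 did not pass, with a median of 0.06; poly-A-control centring made it 4 and 2. HEY1, a transcriptional repressor that Notch also induces, had values of 1.05, 1.17 and 1.22 with MAP30, against -1.14, -1.09 and -1.18 in control, and rose 4.85-fold (limma adjusted p = 3.78e-08). BAMBI, given above, was the other that rose. MSX1, a homeobox repressor, fell by 0.81 on the log2 scale. ATOH8, at -0.14, passed as deposited, but was 0.02 without passing under poly-A-control centring. It also lost its call with quantile normalization (-0.12), with array-median centring (-0.13), and without MAP30 replicates 1 or 3 or any 1 control array. The ID genes' mixed directions stood beside mixed directions in this list.

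**Figure D4:**
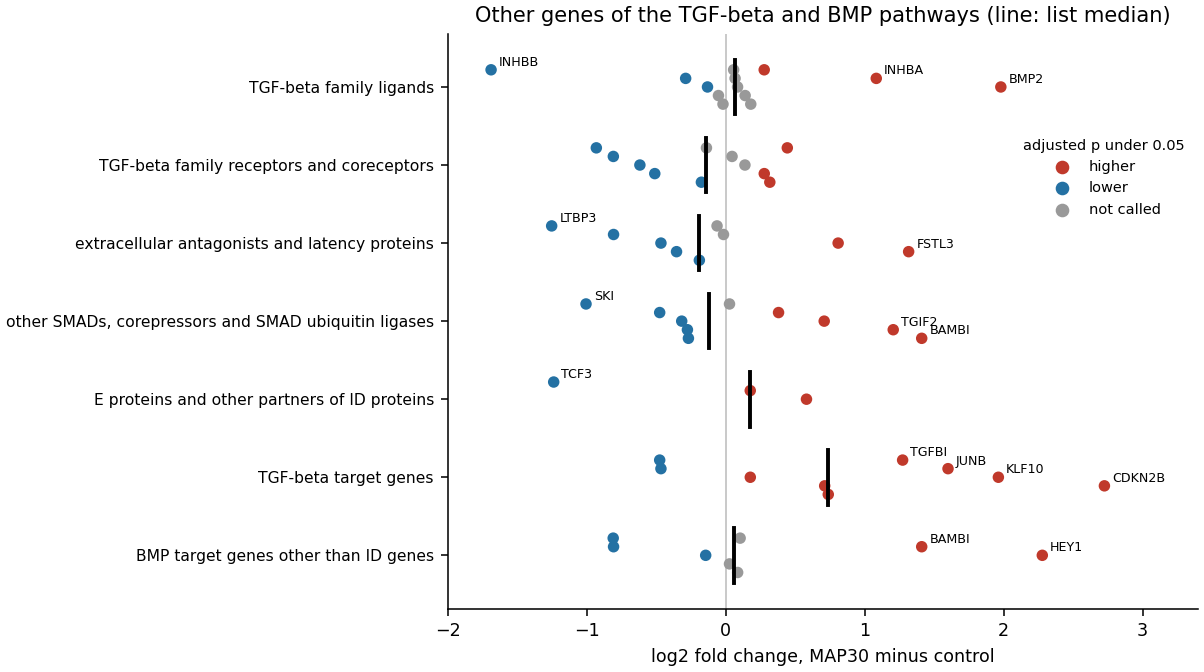
Each point is 1 gene's log2 fold change (MAP30 minus control, horizontal axis) in the 7 lists of other pathway genes, red where it passed as higher, blue as lower and grey where it did not pass; the black line is the list's median. Genes changed by at least 1 log2 unit are named. The lists were chosen with earlier results of these data known. The TGF-beta targets have a median of 0.74, the other 6 lists have medians from -0.19 to 0.18, and every list has points on both sides of 0.

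By the root mean square difference over the 6 arrays, the genes whose centred values were most like those of ID1 were GINS2 (0.0479), NFE2L3 (0.0652) and CCNE2 (0.0723). Those most like ID2 were KCTD18 (0.048), KDM6A (0.0484) and JMJD1C (0.0513). With 2 groups, such likeness is mostly a like fold change: these genes had -2.32, -2.14 and -2.38, and 2.27, 2.18 and 2.22 on the log2 scale.

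Taking all genes, arrays separated by group along a first principal component with 95.6% of the variance. The root mean square difference between arrays was 0.617 to 0.622 between groups and 0.105 to 0.121 within them, and no array duplicated another. Genes listed as markers of other cell types were also followed. CD68, a gene of the leukocyte list that encodes a lysosomal protein, rose by 0.45 on the log2 scale (limma adjusted p = 0.000183). CD68 was higher and passed under all 14 other settings that gave it a value, from 0.24 to 0.62. Its 2 probe sets stood at 0.68, which passed, and 0.22, which did not. Both are of class _x_at, whose probes can also match other transcripts. CD14, another marker of the leukocyte list, went the other way and fell by 0.26 on the log2 scale (limma adjusted p = 0.00569). Both probe sets of CD14 were lower, but the gene did not pass with poly-A-control centring (-0.10). PTPRC (0.03) and CD3E (0.00), which mark leukocytes and T cells, did not pass. MS4A1, also of the leukocyte list, passed as higher at 0.11, though none of its 3 probe sets passed. The fibroblast marker COL1A1 passed as higher at 0.14, with 2 of its 5 probe sets. With hybridization-control centring MS4A1 (-0.10) and COL1A1 (-0.06) did not pass. The endothelial markers KDR (0.22) and TEK (0.14) passed as higher, but neither did with hybridization-control centring (0.01 and -0.07). As gene means of the deposited values, higher and lower counts were 2 and 1 of 5 leukocyte markers, 1 and 0 of 5 fibroblast markers and 2 and 0 of 5 endothelial markers. Centred on hybridization controls they were 1 and 3, 0 and 4, and 0 and 3, but on poly-A controls 4 and 0, 5 and 0, and 5 and 0. Of the 9 urothelial and epithelial markers GATA3 (2.12) and EPCAM (0.96) rose and KRT7 (-1.03) and KRT8 (-0.47) fell, while 5 did not pass. The part of any of these in the members' values was not tested.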

How the data were processed

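Per the labels' protocols, RNA was amplified from its 3′ end with biotin labelling. The authors deposited log2 expression values for 49395 probe sets, with the base of the logarithm taken to be 2; RMA and MAS5 appear in the submitters' processing notes, with no role stated. Each probe set has a median of 0 over the 6 arrays, to within 5.0e-07, so levels are lost. The number of arrays limits the precision.

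Of the probe sets, 44988 had exactly 1 gene in the platform's annotation, 1832 several, 2473 none and 102 were controls. In that annotation no probe set that named a member also named another gene. Whether the probes match other transcripts was not tested. Genes were fitted as means over probe sets, and probe sets by themselves, with limma 3.58.1 in R 4.3.3 (lmFit, eBayes, two-sided, Benjamini-Hochberg over the whole table, threshold 0.05). Pairs of members were compared by exact permutation tests (scipy 1.17.1); tables and plots used Python 3.11.15, pandas 2.3.3 and matplotlib 3.10.9. The fit was also run on simulated data with independent noise and far fewer changed genes than were called here. That run was a check of the code and is no support for the calls above.

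Alternatives covered 4 scalings, 2 summaries of probe sets, 2 variance models, the replicate block and leaving out each array. The text names all members, up to 3 rises and 3 falls of each list and the 3 genes most like ID1 and ID2. The plot of pathway genes also names TGFBI, by its size of change; PTPRC and CD3E were picked with values in view. The members and lists were chosen with earlier results of these data known. Same-numbered arrays did not pair: their deviations correlated at -0.0396, 0.0702 and 0.0106.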

Additional observations from a re-analysis of the deposited data

How the results depend on the processing

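Of the 104 values of the 7 members that passed, under up to 15 other settings, 104 kept their sign and call. For the others, ID4 passed at -0.19 when arrays were centred on hybridization controls and at 0.19 on poly-A controls, and was -0.02 from _at and _a_at probe sets alone, and -0.01 to 0.06 without 1 array. SMAD4 was -0.30 with hybridization-control centring and -0.10 with a variance trend (both passed), 0.07 with poly-A-control centring, 0.09 with the median over probe sets and 0.07 from _at and _a_at probe sets; without 1 array it was -0.11 to -0.08. SMAD6 was -0.30 with hybridization-control centring and -0.15 with the median over probe sets (both passed), 0.07 with poly-A-control centring and -0.14 to -0.05 without 1 array, passing without MAP30 replicate 1.

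With hybridization-control centring 3087 genes were higher and 11558 lower, against 4878 and 5553 as deposited, 7 members were lower, and of the members' probe sets 7 were higher and 22 lower; of all probe sets 7933 were higher and 25944 lower. With poly-A-control centring 8906 genes and 19767 probe sets were higher and 3754 genes lower. Calls that were rises made 46.8% of all as deposited, 21.1% and 70.3% with these centrings. Signs turned with hybridization-control centring for TCF4 (-0.03), COL1A1 (-0.06), MS4A1 (-0.10), TEK (-0.07) and, by probe set, 2 of ID4 (-0.20 and -0.00) and 3 of SMAD4 (-0.17, -0.07 and -0.05); with poly-A-control centring for ATOH8 (0.02), GDF11 (0.03) and 1 probe set of SMAD4 (0.03). The shifts in ID3 minus ID1 and SMAD3 minus SMAD4 were 0.89 and -0.38 from _at and _a_at probe sets, and that in SMAD7 minus SMAD6 was 0.81 with the median over probe sets. The cause of these changes was not tested, beyond the uniform shift that centring applies.

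With the replicate number as a block, 4838 genes were higher and 5483 lower, and of the members 3 were higher and 4 lower; as the numbers do not pair the arrays, this is a check only. Without signal levels, no limit from dim probe sets can be given.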
